A study of Mus musculus with 2 samples.

Results

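The genes described here encode the subunits of heterotrimeric G proteins and the regulators of G protein signalling, the RGS proteins, and their RNA was measured in mouse hippocampus. They were chosen by name: every gene with at least 1 transcript annotated as protein-coding and a symbol beginning with Gna, Gnb, Gng or Rgs plus a number, which gave 57 genes. Gnas, Rgs2, Rgs5 and Rgs14 were left out, which leaves 53 of the 21901 genes with such a transcript in the GENCODE M21 annotation. Total RNA was sequenced from hippocampus of male mice of strain B6CASTF1/J, an F1 hybrid of C57BL/6J and CAST/EiJ, at 2 months of age. Each of the 2 libraries was made from 300 ng of RNA with ERCC spike-in RNAs added, and they carry the biological replicate numbers 1 and 2. They form 1 group with no treatment, genotype or age to compare, so the values below are a description with no test. Nothing beyond the replicate numbers says that separate animals were used, and the spread between the libraries may be technical.

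A heterotrimeric G protein couples a 7-transmembrane receptor to its effectors. The active receptor makes the alpha subunit exchange GDP for GTP, and alpha and the tightly bound beta-gamma dimer then act on channels and enzymes until alpha hydrolyses its GTP. Alpha subunits of the i/o class inhibit adenylyl cyclase and release the beta-gamma dimers that open potassium channels and close calcium channels, the q/11 class activates phospholipase C beta, and the s/olf class stimulates adenylyl cyclase. RGS proteins speed up GTP hydrolysis by alpha and so shorten the signal. In the hippocampus these proteins relay the actions of GABA, acetylcholine, serotonin, adenosine and metabotropic glutamate receptors.

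The end of the alpha subunit meets the receptor, and the end of its coding sequence differs between the classes. The last 5 codons and the stop codon, 5′ to 3′ from the GENCODE M21 transcripts, are shown for the highest genes of the i/o, q/11 and 12/13 classes, with the fourth codon before the stop in capitals. In most i/o genes that codon is cysteine, the residue that pertussis toxin modifies. The codon alone does not give the class: isoleucine stands in Gnaz, Gna12 and Gna15, and tyrosine in Gnaq, Gna11 and Gnal.
Gnao1, downstream exon: ggcTGCggcttgtactga
Gnao1, upstream exon: ggcTGTggactctactga
Gnai2: gacTGTggcctcttctga
Gnai1: gacTGTggtctcttctaa
Gnaz: tacATCggcctttgctga
Gnaq: gagTACaatctggtctaa
Gna11: gagTACaacctggtgtga
Gna12: gacATCatgctgcagtga
On mm10 these bases lie at chr8:93967038-93967055 and chr8:93956235-93956252 (Gnao1, plus strand), chr9:107615635-107615652 (Gnai2, minus), chr5:18267019-18267036 (Gnai1, minus), chr10:75015195-75015212 (Gnaz, plus), chr19:16383377-16383394 (Gnaq, plus), chr10:81530795-81530812 (Gna11, minus) and chr5:140760549-140760566 (Gna12, minus), each in the last coding exon.

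Gamma subunits end in a lipid-modified cysteine, and the last codon before the stop is known to set the lipid: leucine goes with a geranylgeranyl group and serine with a shorter farnesyl group. The cysteine codon, the codons after it and the stop are shown for the highest genes and for the serine type, with the last sense codon in capitals.
Gng2: tgcgccatcCTTtaa
Gng7: tgcataattCTCtag
Gng3: tgtgcgctcCTCtga
Gng13: tgcaccatcCTAtga
Gng11: tgtgtcattTCAtaa
Gngt2: tgtgtgctaAGCtga
They lie at chr14:19875807-19875821 (Gng2, minus strand), chr10:80951621-80951635 (Gng7, minus), chr19:8838143-8838157 (Gng3, minus), chr17:25719018-25719032 (Gng13, plus), chr6:4008146-4008160 (Gng11, plus) and chr11:95845594-95845608 (Gngt2, plus) on mm10, also in coding exons.

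Levels are given in TPM, a measure that corrects for transcript length and for the total of each library, so that genes can be compared with each other. The libraries held total expected counts of 31422827 and 31303010, of which the 53 genes took 0.364% in both. Hippocampal neuron markers were all present, 7 of 7 at 1 TPM or more with a median of 68.9 TPM. Markers of astrocytes (4 of 4), oligodendrocytes (4 of 4), microglia (5 of 5) and endothelium (5 of 5) were present too, thalamic markers reached 4 of 5, striatal markers 3 of 6 and blood markers 2 of 6. In bulk tissue, fewer cells of a type and less RNA per cell cannot be told apart.

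Of the 53 genes, 39 were detected, meaning 1 TPM or more in both libraries, against 57.9% of all genes with a protein-coding transcript. Their median level was 16.9 TPM, and over all such genes it was 3.30 TPM. Among detected genes alone the medians were 29.6 and 14.8 TPM. A mean of at least 10 TPM was reached by 29 of the 53 genes, against 7857 of the 21901 genes with a protein-coding transcript. Another 10 of the 53 lay between 1 and 10 TPM. Gna15 reached the limit in 1 library only, and Gnat2, Gnat3, Gngt1 and Rgs21 had an expected count of 0 in both.

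**Figure D1:**
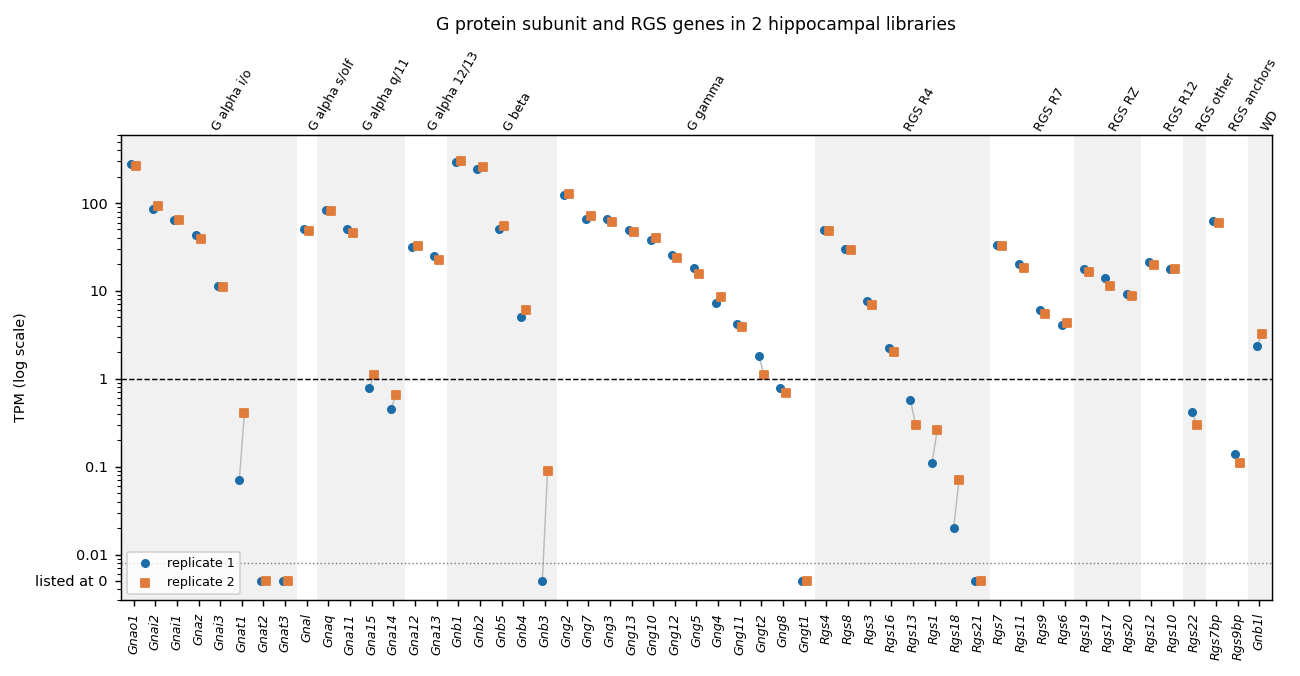
Level of each of the 53 genes in TPM (log axis) in replicate 1 (circles) and replicate 2 (squares), grouped by class, with the detection limit of 1 TPM as a dashed line; values of 0 are drawn under the dotted line. Gnb1, Gnao1 and Gnb2 are the 3 highest genes in both libraries, the lowest of their values being the 244.5 TPM of Gnb2 in replicate 1, and the transducin genes Gnat1, Gnat2, Gnat3 and Gngt1 lie below 1 TPM.

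The i/o class held most of the alpha subunit RNA: its 8 genes summed to 474 ± 8.12 TPM (SD, n = 2), 66.7 ± 0.394% of the alpha total of 711 ± 16.4 TPM without Gnas, the widely expressed stimulatory subunit. Gnao1, which encodes the alpha subunit Go that is abundant in brain, was the highest with 276 TPM in the library of replicate 1 and 261 TPM in that of replicate 2, or 37.8 ± 0.644% of the alpha total. The gene (ENSMUSG00000031748.16) spans chr8:93809966-93969388 on the plus strand of mm10. Gnai2, the most widely expressed of the inhibitory subunits, had 84.9 and 93.2 TPM. Gnai1, an inhibitory subunit typical of brain, had 64.4 and 64.0 TPM. The third inhibitory gene, Gnai3, was far lower at 11.4 and 10.96 TPM. These levels did not overlap: every value of Gnao1 lay above those of Gnai2, and those of Gnai2 above Gnai1 and Gnai3.

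Gnaz, whose product Gz is inhibitory but slow to hydrolyse GTP, had 43.1 and 38.9 TPM. Its isoleucine codon in the place of cysteine, shown above, sets it apart from the rest of its class. Genes with the cysteine codon, 7 in number with 4 detected, made up 61.0 ± 0.674% of the alpha total, and tyrosine, isoleucine, leucine and phenylalanine codons shared the rest. The transducins of the i/o class serve vision and taste. Gnat1, the rod transducin, had expected counts of 3 and 4. The cone gene Gnat2 and the taste gene Gnat3 were at 0, which allows up to 3 counts, or 0.109 and 0.106 TPM for Gnat2 and 0.106 and 0.103 TPM for Gnat3.

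The q/11 class summed to 132 ± 4.88 TPM, and its RNA came almost wholly from 2 of its 4 genes. Gnaq (ENSMUSG00000024639.5, chr19:16132831-16387463, plus strand), which links group I metabotropic glutamate and muscarinic receptors to phospholipase C, had 84.3 and 80.7 TPM. Gna11, its close homologue, had 49.99 and 46.1 TPM. Gna15, best known from blood cells, had 0.79 and 1.09 TPM, and Gna14 had 0.45 and 0.65 TPM. The 6 blood markers summed to 261 and 287 TPM, of which Hbb-bs gave 131 and 141 TPM and Hba-a1 gave 128 and 144 TPM. Ptprc, a gene of all white blood cells, stood at 0.95 and 1.18 TPM. The part of blood RNA in the Gna15 level was not tested.

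Gnal encodes Golf, the stimulatory subunit of olfactory neurons and of striatal neurons with dopamine receptors. Its level was 50.2 and 47.4 TPM, close to that of Gna11. The 6 striatal markers summed to 28.5 and 30.2 TPM, of which Ppp1r1b, also known from hippocampal neurons, gave 22.8 and 22.6 TPM. Drd1 stood at 2.19 and 3.18 TPM and Drd2 at 1.47 and 1.36 TPM, and the part of striatal RNA in the Gnal level was not tested. The 12/13 class summed to 55.7 ± 1.44 TPM. Gna12 had 31.9 and 32.5 TPM and Gna13 had 24.8 and 22.2 TPM, so the ranges of this pair did not overlap.

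Beta subunits, the propeller-shaped partners of gamma, summed to 606 ± 18.4 TPM. Gnb1 (ENSMUSG00000029064.15, chr4:155491361-155559269, plus strand) had 292 and 299 TPM, 48.8 ± 0.745% of the beta total. Gnb2 (ENSMUSG00000029713.15, chr5:137528127-137533510, minus strand) had 245 and 260 TPM, or 41.6 ± 0.521%. Gnb1 was the higher in both libraries, and how far it led depended on how transcripts were counted. It made up 62.2% of the beta total over transcripts annotated as protein-coding. In the deposited second quantification, which holds an estimated count per transcript, it made up 59.9%.

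Gnb5, the divergent beta subunit that binds RGS proteins of the R7 class in place of gamma, had 51.1 and 54.4 TPM. Gnb4 had 5.04 and 6.09 TPM. Gnb3, the beta subunit of cones and taste cells, had expected counts of 0 and 2. Gnb1l, a WD-repeat gene named for its likeness to Gnb1 and not counted as a subunit, had 2.35 and 3.22 TPM.

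Gamma subunits, which anchor the dimer to the membrane, summed to 399 ± 2.62 TPM over 12 genes, 10 of them detected. Gng2 (ENSMUSG00000043004.13, chr14:19872559-19977627, minus strand) had 124 and 125 TPM, 31.3 ± 0.416% of the gamma total. Next came Gng7, the gamma subunit that pairs with Golf in striatum, with 65.7 and 70.7 TPM. Gng3, a gamma subunit known mainly from neurons, had 65.2 and 61.4 TPM. Gng7 was the higher in both libraries, but its lowest value and the highest of Gng3 nearly met. In the second quantification they lay further apart, with Gng7 at 26.5% and Gng3 at 15.4% of the gamma total.

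The lead of Gng2 rested in part on a short transcript. Gng2-206, of 393 bases, held 44.9% of the gene's TPM and 6.28% of its counts, and it was at 0 in the second quantification. Without transcripts under 500 bases Gng2 made up 23.9 and 22.99% of the gamma total, a mean of 23.5%, and Gng7 made up 22.98 and 24.9%, a mean of 23.95%, so that each was the higher in 1 library. In the second quantification Gng2 made up 24.6% with Gng7 above it at 26.5%. Which of the pair was the highest gamma gene therefore depended on the transcripts counted and on the quantification.

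Gng13 had 49.7 and 46.3 TPM from expected counts of only 279 and 269, and its main transcript is 347 bases long. It was the sole gene of the 39 with at least 1 TPM whose levels were 2-fold or more apart between the quantifications, each scaled to nuclear protein-coding genes: 115 ± 4.16 against 54.7 ± 12.2 TPM. Over all genes at that level the share was 1.45%. Gng10 had 38.1 and 39.6 TPM, but 71.9% of the 31-base words of its transcripts also occur in another gene, Gm20503, so its reads could be split and its level is uncertain. Gng12 followed with 25.5 and 23.8 TPM and Gng5, a widely expressed gamma, with 18.1 and 15.7 TPM. Gng4 had 7.34 and 8.46 TPM, and Gng8 stayed under the limit at 0.79 and 0.68 TPM.

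The leucine type made up 98.6 ± 0.181% of gamma TPM over 9 genes. The serine type made up 1.37 ± 0.181% over 3 genes, of which Gng11 had 4.18 and 3.85 TPM, Gngt2 had 1.83 and 1.09 TPM, and the rod transducin gene Gngt1 was at 0 in the gene quantification, allowing up to 0.0674 and 0.0656 TPM. The second quantification gave Gngt1 0.294 and 0.212 TPM from estimated counts of 4.04 and 2.97. Gng11 is known from many tissues outside the brain, endothelium among them. The 5 endothelial markers summed to 44.2 and 46.5 TPM, and their part in the Gng11 level was not tested.

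**Figure D2:**
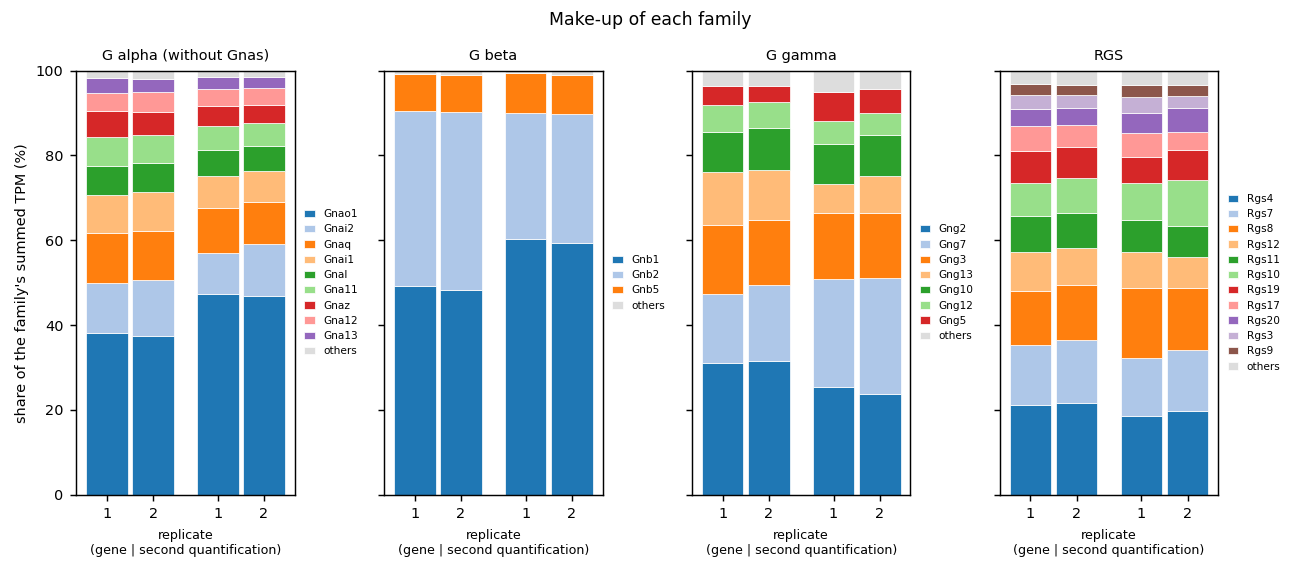
Share of each gene in the summed TPM of its family (percent), for replicates 1 and 2 in the gene quantification (left bars of each panel) and in the second quantification (right bars). The shares of Gnb1 and Gnb2 lie further apart in the second quantification, at 59.9% and 30.0% of beta against 48.8% and 41.6%, and Gng2 and Gng7 change order, from 31.3% and 17.1% to 24.6% and 26.5% of gamma.

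Without their anchors and without Rgs2, Rgs5 and Rgs14, the RGS genes summed to 228 ± 8.83 TPM over 18 genes. This sum lay below that of each subunit family. The R4 class, small proteins with little beyond the RGS domain, held 38.8 ± 0.402% of it although only 4 of its 8 genes kept here were detected. Rgs4, known for limiting Gi/o and Gq signals in cortical neurons, was the highest of these 18 genes at 49.5 and 48.2 TPM. It (ENSMUSG00000038530.11) lies at chr1:169741477-169747642 on the minus strand. Rgs8 had 30.1 and 29.1 TPM, Rgs3 had 7.70 and 6.89 TPM, and Rgs16 had 2.22 and 2.03 TPM. The other R4 genes kept here, Rgs1, Rgs13, Rgs18 and Rgs21, known mainly from blood or taste cells, ranged from 0 to 0.58 TPM.

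All 4 genes of the R7 class were detected. R7 proteins form stable dimers with the product of Gnb5 and act on Gi/o subunits. Rgs7 (ENSMUSG00000026527.13, chr1:175059087-175492500, minus strand) led with 33.0 and 32.6 TPM. Rgs11 had 20.1 and 18.4 TPM, Rgs9, known from striatum and retina, had 6.14 and 5.47 TPM, and Rgs6 had 4.14 and 4.32 TPM. Together they made up 27.2 ± 0.244% of RGS TPM. The membrane anchor of this class, Rgs7bp, stood above every RGS gene kept here at 62.4 and 59.1 TPM. The photoreceptor anchor Rgs9bp had 0.14 and 0.11 TPM.

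The R7 sum of 62.0 ± 1.85 TPM lay close to the Rgs7bp level of 60.7 ± 2.31 TPM and the Gnb5 level of 52.7 ± 2.32 TPM. Over protein-coding transcripts alone the R7 sum was 42.5 ± 0.495 TPM and the Gnb5 level 44.3 ± 2.14 TPM, while that of Rgs7bp was unchanged. The RZ class, which acts on Gz and the other inhibitory subunits, had all 3 genes detected: Rgs19 at 17.7 and 16.6 TPM, Rgs17 at 14.2 and 11.5 TPM, and Rgs20 at 9.16 and 8.68 TPM. Of the R12 class, Rgs12, a large scaffold protein, had 21.4 and 19.5 TPM. Rgs10, which is known from both neurons and microglia, had 17.9 TPM in both libraries. Microglial markers summed to 71.5 and 72.0 TPM, and their part in the Rgs10 level was not tested. Rgs22, a gene of the testis, was under the limit at 0.42 and 0.30 TPM.

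Several of these genes make more than 1 protein, among them Gnao1. Its last coding exons come in 2 alternative sets, and each set gives a protein of 354 codons. Over the 2 alternative exons of each set, 88 of 342 bases differ between the forms. The last exon up to the stop codon is shown for both, on the plus strand of mm10, because most of these differences lie there. Capitals mark the 59 of 188 positions at which the last exons differ.
Gnao1 downstream exon, chr8:93966868-93967055: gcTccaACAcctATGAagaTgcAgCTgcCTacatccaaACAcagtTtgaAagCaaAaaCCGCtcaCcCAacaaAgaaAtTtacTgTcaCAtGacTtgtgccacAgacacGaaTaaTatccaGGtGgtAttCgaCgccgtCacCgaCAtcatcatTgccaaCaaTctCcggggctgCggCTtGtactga
Gnao1 upstream exon, chr8:93956065-93956252: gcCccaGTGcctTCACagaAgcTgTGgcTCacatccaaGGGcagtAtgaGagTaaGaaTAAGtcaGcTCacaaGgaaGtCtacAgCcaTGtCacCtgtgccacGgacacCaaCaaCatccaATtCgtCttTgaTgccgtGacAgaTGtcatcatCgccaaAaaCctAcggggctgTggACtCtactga
Transcripts with the downstream set held 85.4 ± 0.326% of the TPM of transcripts that reach either end, and the transcript with the upstream set held 14.6 ± 0.326%. In the second quantification the shares were 84.8 and 15.2%. The identity of the printed exons is 68.6%.

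Rgs9 has a short form of 484 codons known from retina and a long form of 675 codons known from striatum. The long form held 58.4% of their TPM in replicate 1 and 73.0% in replicate 2, a spread that leaves the balance loosely measured at this low level. Gnal starts from alternative first coding exons, and the longer form, of 448 codons, held 58.6 and 59.5%. In the second quantification it held 53.0 ± 0.403%.

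Annotated transcript types differed among the genes. Over the 29 genes with at least 10 TPM, protein-coding transcripts held a median of 99.2% of the TPM, against 88.1% over all genes at that level. For 2 of the 29, Rgs11 and Gnb2, the share was under 50%. So it was for 9.66% of all genes at that level, and such shares are not particular to these genes. In Rgs11 (ENSMUSG00000024186.15, chr17:26202951-26211324, plus strand), transcripts annotated with a retained intron held 93.8 and 94.6% of the TPM. Its protein-coding transcripts held 6.18 and 4.52%, and 7.80% on average in the second quantification. The gene level of Rgs11 is thus largely a level of RNA annotated as not protein-coding: it made up 8.41% of RGS TPM over all transcripts and 0.53% over protein-coding ones.

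Retained-intron transcripts of Gnb2 held 52.1 and 50.6% of its TPM in the gene quantification. The second quantification gave 19.2 and 15.5%, so for Gnb2 this share depended on the quantification. In the gene quantification, Gnaz and Gng10 had 33.0 ± 1.64 and 42.6 ± 10.5% in transcripts annotated as processed without a coding sequence. The second quantification gave a mean of 19.2% for Gnaz and 0% for Gng10 in both libraries, so these shares depended on the quantification too. The most abundant transcript differed between the quantifications in 8 of the 25 genes with several transcripts, against 24.9% of all genes at that level. Gnao1 was among the 8: Gnao1-206, a transcript of 741 bases, held 7.20% of its TPM in the gene quantification and 28.9%, the highest share, in the second.

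**Figure D3:**
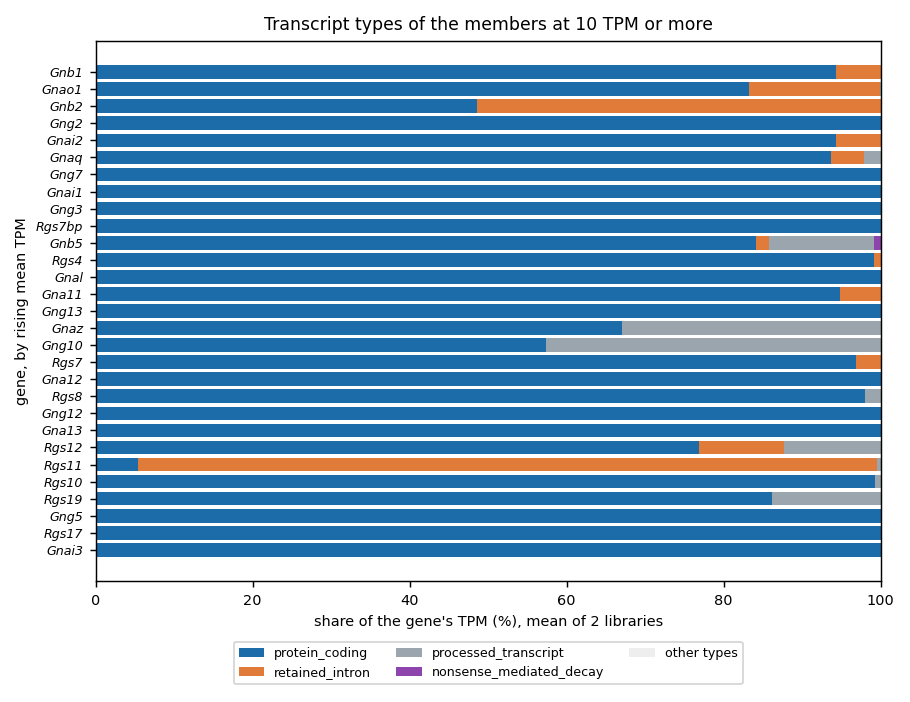
Share of each gene's TPM by annotated transcript type (percent, mean of 2 libraries) for the 29 genes with a mean of at least 10 TPM, from the highest level at the top to the lowest. Rgs11 stands out with 94.2% in retained-intron transcripts and Gnb2 with 51.4%.

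Some of these genes lie side by side in the genome, and 8 pairs were no more than 100 kb apart. In the q/11 class both pairs run on the same strand, and each held a high and a low gene. Gnaq lay 48.3 kb from Gna14 on chromosome 19, and its mean TPM was 150-fold higher. On chromosome 10, Gna11 lay 4.50 kb from Gna15 and was 51.1-fold higher. Rgs8 lay 40.0 kb from Rgs16 on chromosome 1 and was 13.9-fold higher, and Gna13 lay 64.7 kb from Rgs9 on the other strand of chromosome 11 and was 4.05-fold higher.

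The pairs of Gnai2 with Gnat1 at 39.1 kb and of Gnai3 with Gnat2 at 5.85 kb also joined a detected gene to a transducin gene below 1 TPM. So did Gng11 with Gngt1 at 6.47 kb. Only Rgs13 and Rgs1, 64.9 kb apart, were both under the limit.

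**Figure D4:**
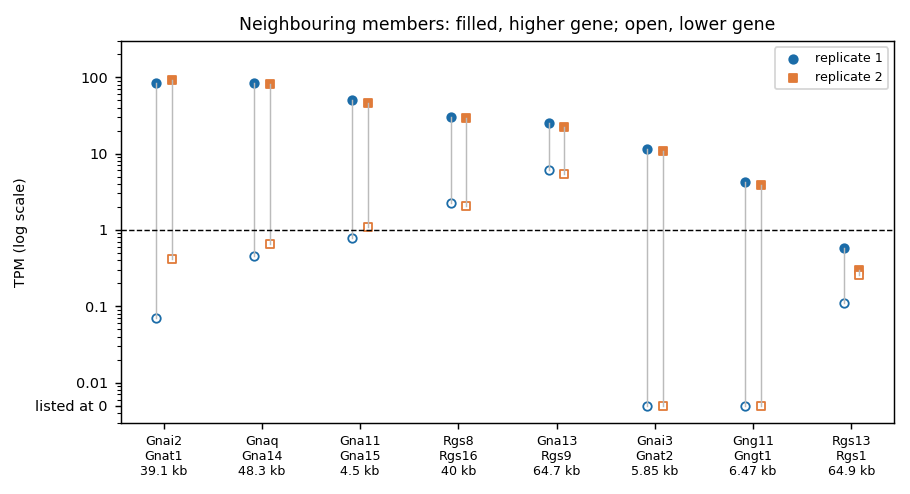
TPM (log axis) of the higher (filled) and lower (open) gene of each pair lying within 100 kb, in replicate 1 (circles) and replicate 2 (squares), with the distance under each pair and 1 TPM as a dashed line. In 5 of the 8 pairs the lower gene is below 1 TPM in at least 1 library and the higher gene is above 3 TPM in both.

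The promoters of neighbours can be compared by their CpG dinucleotides, and those of Gna11 and Gna15, the pair closest to each other, are shown. The 250 bases before each start are RefSeq sequence of GRCm38.p6 on the minus strand, with every CG in capitals, at chr10:81545163-81545412 and chr10:81524226-81524475.
Gna11 promoter: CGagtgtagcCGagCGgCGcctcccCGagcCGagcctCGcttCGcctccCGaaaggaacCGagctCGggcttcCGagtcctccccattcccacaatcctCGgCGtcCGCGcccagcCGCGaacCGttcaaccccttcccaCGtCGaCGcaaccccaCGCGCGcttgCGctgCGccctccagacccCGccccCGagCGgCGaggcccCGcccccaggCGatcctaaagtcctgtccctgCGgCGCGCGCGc
Gna15 promoter: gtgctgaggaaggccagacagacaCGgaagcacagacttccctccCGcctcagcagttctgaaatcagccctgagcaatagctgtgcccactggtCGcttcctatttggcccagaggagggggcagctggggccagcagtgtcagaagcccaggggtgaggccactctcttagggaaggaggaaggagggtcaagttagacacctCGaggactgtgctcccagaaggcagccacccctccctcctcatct
Gna11 has 38 CpG and Gna15 has 4. Of the other pairs with both promoters matched, Gnaq and Gna14 have 37 and 7, Gna13 and Rgs9 have 33 and 14, and Gnai3 and Gnat2 have 18 and 5. Rgs8 and Rgs16 go the other way, with 9 in the higher gene and 17 in the lower. Promoters were matched for 39 of the 53 genes. Where a gene had several promoters, the one with the most CpG was used, here and for all genes. Among the 39 only detected genes had several, which can raise the detected median but not lower it. The 31 detected genes had a median of 18 CpG and the 8 others a median of 4, with a range from 0 to 7. The same contrast held over all protein-coding genes, with medians of 17 in 9915 detected genes and 3 in 6607 others, so it is not particular to these genes. Gng3 with 2, Gng2 with 3, Gnb5 with 3 and Rgs7bp with 5 had few CpG in the matched promoter and levels over 50 TPM. Whether their RNA starts at these promoters was not tested.

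Between the libraries the levels of these genes were close, as were those of most genes. Both libraries gave 50 or more expected counts for 38 genes, and the remaining 15 were not compared. At that count 0 of the 38 were 2-fold apart, against 0.273% of all genes, and 0 were 1.5-fold apart, against 1.77% of all genes. With shares that low over all genes, 0 of 38 does not set these genes apart. The SD of the log2 ratio of replicate 2 over replicate 1 was 0.14 for these genes and 0.20 for all, not matched for count. Over all genes the SD was 0.27 at mean counts of 50 to 500, 0.14 at 500 to 5000 and 0.085 above. Of the 38, 12, 20 and 6 lay in these ranges. The extremes were Rgs17 at -0.30 and Gnb1l at 0.45, and none of the 38 lay outside the central 95% of genes of like count, against 5.02% of all genes.

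In TPM, 12 of the 38 were higher in replicate 2, where 36.9% of all genes were, and the median log2 ratio was -0.07 against -0.04 for all genes. This small shift depended on the scaling: with counts scaled by TMM the split was 19 to 19 with a median of 0.00, and in the second quantification 21 of 38 were higher with a median of 0.02.

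**Figure D5:**
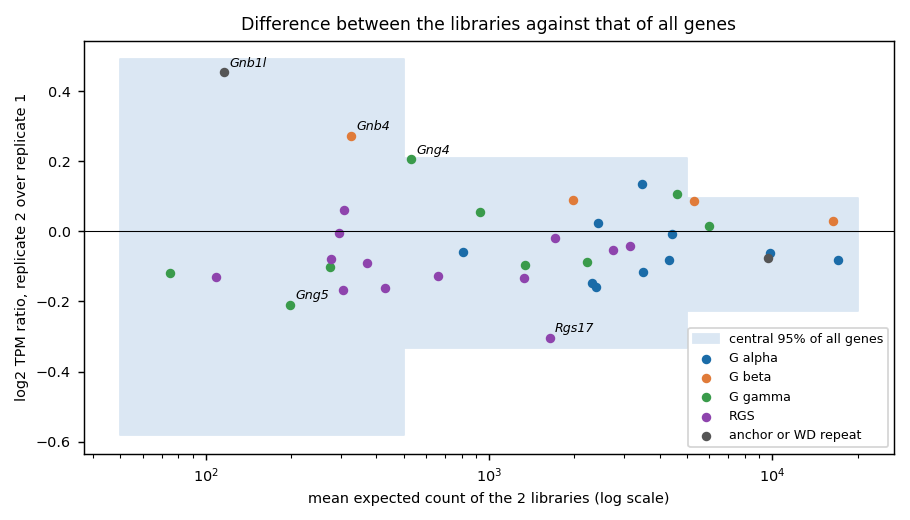
Log2 ratio of TPM, replicate 2 over replicate 1, against the mean expected count (log axis) for the 38 genes with at least 50 counts in both libraries; shading spans the central 95% of all genes in 3 ranges of count. All 38 points lie inside the shading, from -0.30 for Rgs17 to 0.45 for Gnb1l.

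The partners of these proteins were also present. Of the G protein-gated potassium channels, opened by beta-gamma, 3 of 4 were detected: Kcnj6 at 50.2 ± 2.84 TPM, Kcnj3 at 47.1 ± 1.96 TPM and Kcnj9 at 27.0 ± 0.509 TPM, while the cardiac Kcnj5 had 0.10 and 0.13 TPM. Of the phospholipase C beta genes, the effectors of Gq, 3 of 4 were detected and Plcb1 led at 60.6 ± 3.94 TPM, followed by Plcb4 at 8.49 ± 0.0495 TPM and Plcb3 at 6.94 ± 0.205 TPM.

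Receptor kinases and arrestins, which switch receptors off, had 7 of 7 detected, led by Grk2 at 80.0 ± 2.86, Arrb1 at 59.2 ± 1.63 and Arrb2 at 38.7 ± 2.77 TPM. Chaperones that fold the subunits had 3 of 3 detected, Ric8a at 30.7 ± 1.62, Ric8b at 16.6 and 15.4 and Pdcl at 12.3 ± 0.608 TPM. Among proteins that act on alpha without a receptor, 4 of 6 were detected, led by Rasd2 at 27.8 ± 0.707, Rasd1 at 24.2 ± 0.940 and Gpsm1 at 15.4 ± 0.742 TPM. Of the orphan receptors that hold R7 complexes at the membrane, Gpr158 had 31.5 ± 1.33 TPM and Gpr179, known from retina, had 0.08 and 0.03 TPM. In none of these 6 lists was a gene with 50 counts in both libraries 2-fold apart between them.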

How the data were processed

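Total RNA of 2 hippocampal libraries was quantified by the authors against mm10 with GENCODE M21, per the deposited text listings. The expected count deposited by the authors is an estimated number of reads per gene or transcript that need not be whole, in the column layout of RSEM, and the second quantification, with the layout of kallisto, holds an estimated count per transcript. The TPM values, as deposited, are scaled to 1e+06 over all entries, spike-ins included. Nuclear protein-coding genes took 42.1 and 41.2% of TPM in the gene quantification and 74.2 and 74.4% in the second. Fold differences in gene level between the 2 were therefore taken only after scaling each to these genes. The detected count, the median TPM and the levels of Gngt1 and Gm20503 in the second quantification are given unscaled. The sources used here name no program, version or use of strand. The reference is that of C57BL/6J, and how reads of the CAST/EiJ haplotype fared on it was not measured.

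Detection needed 1 TPM or more in each library, and libraries were compared where each gave 50 or more expected counts. A count of 0 was read as allowing 3 counts, which covers counting error only. Family shares are shares of summed TPM per library, given as mean ± SD (n = 2). The groups of count for the central 95% began at 50, 500 and 5000. Coding ends and 31-base words came from the GENCODE M21 transcripts, and promoters from RefSeq. Full values were planned for genes with at least 10 TPM, the highest of each class, those apart between libraries or quantifications, those detected in 1 library, neighbours within 100 kb and the 3 highest of each pathway list; values of further members were added so that all 53 are accounted for. The members and lists were chosen with earlier results of these data known. Expected counts were rounded only to get TMM factors (edgeR 4.0.16) and size factors (DESeq2 1.42.0) under R 4.3.3, and no count test was run. Other steps used Python 3.11.15 with pandas 2.3.3 and numpy 2.4.6. With 1 group no p-value was computed. Some lists are not reported here.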

Additional observations from a re-analysis of the deposited data

How the results depend on the processing

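No paired analysis was possible because there is 1 group. Leaving out each library in turn gave 39 to 40 detected genes, a median of 15.7 to 17.7 TPM, and shares of 66.4 to 67.0% for Gi/o, 48.2 to 49.3% for Gnb1, 31.02 to 31.6% for Gng2 and 27.0 to 27.4% for R7. The count of detected genes was 40 in the second quantification, unscaled. In the gene quantification it was 42 when scaled to nuclear protein-coding genes, and 41 or 34 at limits of 0.5 or 5 TPM. The median TPM was 25.2 in the second quantification, unscaled and so not comparable with that of the gene quantification. In the gene quantification it became 40.6 when scaled and 29.6 over detected genes. In the second quantification, over expected counts and over protein-coding transcripts, in this order, the share of Gi/o was 71.1, 55.5 and 64.2%, that of Gnb1 59.9, 68.3 and 62.2%, that of Gng2 24.6, 37.0 and 32.7%, and that of R7 26.3, 22.3 and 21.7%. Without transcripts under 500 bases the Gng2 share was 23.5%; this, the protein-coding shares and the scaling of named genes were chosen after seeing the data. The median share of a gene's highest transcript moved from 65.8 to 71.6%. The count of genes 2-fold apart was 0 under every alternative tried, among them no count filter with a pseudocount of 1. The median log2 ratio was -0.01 with DESeq2 size factors and -0.08 at 10 counts. Of 33 named genes at 1 TPM or more, 3 were 1.5-fold or more apart between the scaled quantifications. They were Gng2, Gng12 and Gng13, all lower in the second, and the share of all genes at this fold was not computed. The scaled gamma sum was 958 ± 7.53 TPM in the gene quantification and 711 ± 28.0 TPM in the second. In the same order the sums were 1707 and 1773 TPM for alpha, 1456 and 1508 for beta, and 548 and 522 for RGS. The causes were not tested. With 2 libraries, each SD is itself loosely known, and genes with few counts are limited by depth.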

Other observations

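The annotated processed pseudogenes Gnb1-ps2, Gnb1-ps3, Gng2-ps1 and Gng5-ps were listed at 0 in both libraries and both quantifications. Gm20503, which shares most of the sequence of Gng10, was listed at expected counts of 0 and 33.7 in the gene quantification and at 14.3 and 15.7 TPM in the second.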
